A study of Homo sapiens with 4 samples.

Results

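The carcinoembryonic antigen related cell adhesion molecules (CEACAM) examined here are CEACAM1, CEACAM3, CEACAM4, CEACAM5, CEACAM6, CEACAM7 and CEACAM8, 7 of the 31033 gene names on the arrays. They were taken by gene name alone, and every probe that was not a control and carried one of these names was used, which gave 12 of 50238 probes. The arrays were 4 single color Agilent arrays of HCT116, an established colorectal carcinoma cell line. Of these, 2 held RNA of the vector control clone (vec) and 2 held RNA of the clone shpkp3-2, in which plakophilin3 (PKP3), a desmosomal plaque protein, was knocked down by a stably transfected plasmid encoding an shRNA. Both clones were grown in Iscove's modified medium under selection, which the sample labels give as puromycin and the study's methods as blasticidin. The first arrays of vec and shpkp3-2 came from 1 RNA collection and the second arrays from another. Each genotype was represented by 1 clone, so that differences between clones and the effect of the knockdown cannot be told apart.

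CEACAM proteins are members of the immunoglobulin superfamily that sit in the plasma membrane and bind to each other between cells. CEACAM1, CEACAM3 and CEACAM4 cross the membrane and carry cytoplasmic tails with tyrosine motifs, while CEACAM5 (the carcinoembryonic antigen, CEA), CEACAM6, CEACAM7 and CEACAM8 are held by a glycosylphosphatidylinositol (GPI) anchor. In the colon CEACAM1, CEACAM5, CEACAM6 and CEACAM7 are known from the apical surface of mature enterocytes, and CEACAM5 and CEACAM6 are well known tumor antigens. CEACAM3, CEACAM4 and CEACAM8 are known mainly from granulocytes.

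The RNA of most of the family was faint or not measurable in both clones, and no member passed the test of a difference between them. CEACAM1, CEACAM3, CEACAM4 and CEACAM7 each had a probe that could be tested, and CEACAM5, CEACAM6 and CEACAM8 were not well above background on any array. Of the 6 member probes tested, 0 passed the threshold in limma (adjusted p of 0.491 to 0.880) and 0 had an unadjusted p under 0.05. Over all 30512 probes tested, limma called 119, which is 0.390%, and 12.3% had an unadjusted p under 0.05. With 6 probes, a count of 0 does not stand apart from these shares. A 2-fold rule after the filter described with the study's HCT116 array data, a change of at least 2-fold on each shpkp3-2 array, taken here against the mean of vec, was met by 0 of the 6 and by 1.74% of all probes tested.

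The knockdown itself was seen on the arrays. PKP3 gave a processed signal of 20850 and 22840 in vec and of 3414 and 3078 in shpkp3-2. Its log2 fold change was -2.54 ± 0.23 (SE, n = 2 arrays per clone, limma adjusted p = 0.0188). The 75th percentile of the signal, on which each array was scaled, was between 374 and 499, and the lowest signal called well above background was between 8.41 and 9.74. Between 60.5% and 63.5% of the 51538 spots were well above background, and 0 were saturated. All 4 arrays lay on 1 slide, with the clones at neighbouring positions, and clone and position on the slide cannot be told apart.

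The probes are 60 bases long, and in a family of such similar genes their sequences decide which transcript is read. Coding sequence is shown whole and other probes by 30 bases, all 5′ to 3′ as the array files print them. The CEACAM1 transcripts are read by 3 probes, here called by the last part of their names. P55738 lies in the extracellular part next to the membrane. P434118 is assigned only to NM_001024912, a splice form with the short cytoplasmic tail, and is not shown to read that form alone, since sequence it shares with other CEACAM1 transcripts was not tested. The brightest probe, P382319, is assigned to NM_001712 like P55738.

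CEACAM1 P55738: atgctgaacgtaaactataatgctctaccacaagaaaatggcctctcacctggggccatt
CEACAM1 P434118, bases 1 to 30: cggcagctcaggaccactccaatgacccac
CEACAM1 P382319, bases 1 to 30: ccatgctgtgctgtgttatttaatttttcc

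The 2 probes of CEACAM3 are shown because they gave different readings. P130515 lies in the coding sequence of NM_001815, and P358244 was designed on the mRNA record D90278.

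CEACAM3 P130515: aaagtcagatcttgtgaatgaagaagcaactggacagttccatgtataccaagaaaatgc
CEACAM3 P358244, bases 1 to 30: gtgacccagtcacgctgaatgtcctctgta

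The 12 probes were laid over each other, over the probes of 5 other CEACAM genes and 10 pregnancy-specific glycoprotein (PSG) genes, the closest relatives of the family, and over all other probes of the array, without gaps and with an overlap of at least 30 bases. The best match of a member probe to an unrelated probe held 31 to 34 identical bases. Family matches were above this level for 2 probes only. CEACAM5 P153301 shared 38 of 60 bases with PSG1 P50697 (the best unrelated probe shared 31), and CEACAM7 P228302 shared 37 of 54 overlapping bases with PSG5 P219970 (the best unrelated probe shared 33). Capitals mark the identical bases, over the whole probe for CEACAM5 and PSG1, and over 30 bases for CEACAM7 (bases 29 to 58) and PSG5 (bases 23 to 52), of which 25 are identical.

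CEACAM5 P153301: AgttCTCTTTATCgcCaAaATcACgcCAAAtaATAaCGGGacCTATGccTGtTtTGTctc
PSG1 P50697: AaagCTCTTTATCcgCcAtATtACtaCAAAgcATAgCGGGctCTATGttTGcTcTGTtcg
CEACAM7 P228302, bases 29 to 58: ACcTCTAgACTcACCTgTTCTCACgCCCTG
PSG5 P219970, bases 23 to 52: ACtTCTAtACTtACCTaTTCTCACtCCCTG

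The PSG1 and PSG5 probes themselves were not well above background on any array. These matches compare probes with probes. Matches between a probe and the transcripts of another member were not tested, as no transcript sequences were used here.

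**Figure D1:**
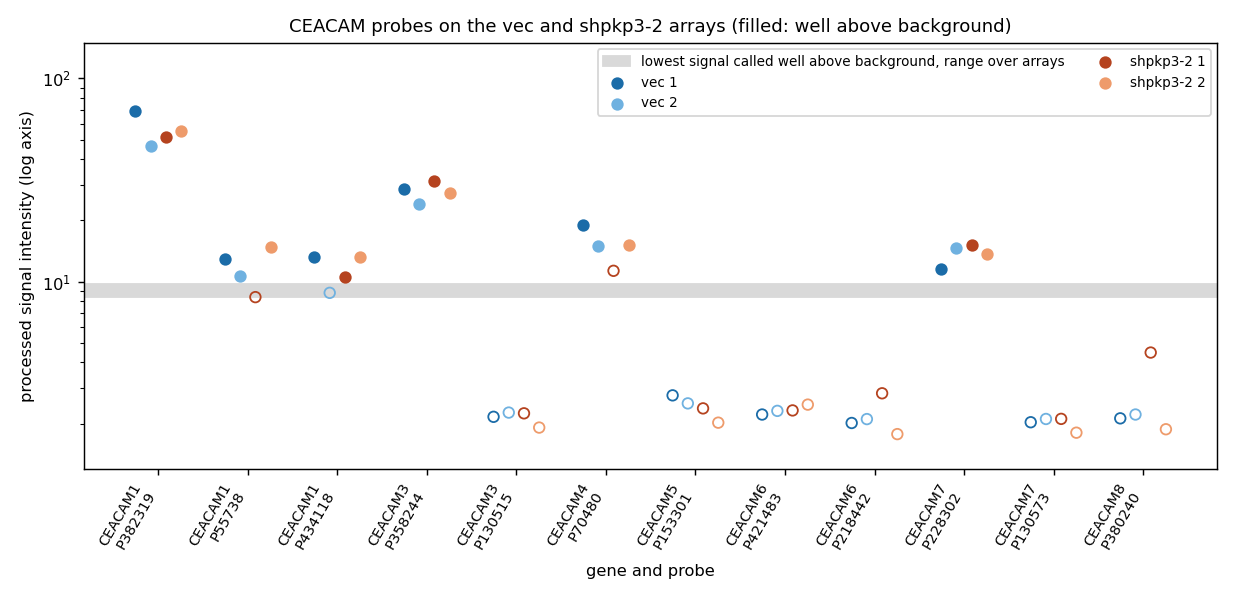
Processed signal intensity (log axis) of the 12 CEACAM probes on each array, with filled points where the probe was well above background and open points where it was not. The grey band is the range over arrays of the lowest signal called well above background, 8.41 to 9.74. Of the 12 probes, 6 lie below it on every array, and the points of vec (blue) and shpkp3-2 (red) lie close together for the others.

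CEACAM1, an inhibitory receptor and homophilic adhesion molecule, was read by all 3 of its probes. Its brightest probe, P382319, gave a processed signal of 69.1 and 46.5 in vec and of 51.2 and 55.3 in shpkp3-2, well above background on all 4 arrays. The vec arrays lay above and below both shpkp3-2 arrays, so the clones overlapped before scaling, and they also overlapped after it. On the normalized log2 scale the mean was -2.94 ± 0.13 in vec and -2.82 ± 0.09 in shpkp3-2 (SD, n = 2 each), where 0 is the 75th percentile of an array. The log2 fold change was 0.12 ± 0.18 (SE), with a 95% interval of -0.33 to 0.57, and the limma adjusted p was 0.814. This interval spans 0.799-fold to 1.48-fold, so a change of 2-fold in either direction lies outside it. Within the first RNA collection the difference was -0.03 and within the second 0.28.

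The other CEACAM1 probes lay near the limit of detection. P55738 gave 13.0 and 10.6 in vec against 8.38 and 14.8 in shpkp3-2, and was not well above background on the first shpkp3-2 array. Its shpkp3-2 arrays lay on either side of vec, and its log2 fold change was 0.14 ± 0.30 (SE, limma adjusted p = 0.880). P434118, the probe assigned to NM_001024912, gave 13.2 and 8.80 in vec against 10.6 and 13.3 in shpkp3-2, and was not well above background on the second vec array, so that it passed the filter through shpkp3-2. After scaling, both shpkp3-2 arrays of P434118 lay above both vec arrays. The difference was within the error of the fit, with a log2 fold change of 0.35 ± 0.21 (SE), a 95% interval of -0.16 to 0.85 and a limma adjusted p of 0.546. The interval of each of the 3 CEACAM1 probes included 0. The sign of P55738 rested on the shpkp3-2 arrays, with a log2 fold change of 0.56 without the first and -0.28 without the second.

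CEACAM3, a phagocytic receptor of granulocytes, was read differently by its probes. P358244 gave 28.6 and 24.2 in vec and 31.3 and 27.3 in shpkp3-2, well above background on all 4 arrays. P130515 gave 2.16, 2.26, 2.25 and 1.91 on the same arrays, and on all 4 the software had replaced the signal by a surrogate value, so it holds no reading. The RNA that P358244 bound is therefore not shown to be the CEACAM3 transcript NM_001815. On the normalized log2 scale the mean of P358244 was -4.05 ± 0.10 in vec and -3.69 ± 0.13 in shpkp3-2 (SD, n = 2 each), and the arrays of the clones did not overlap. Of all probes tested, 45.2% had clones that did not overlap, so this pattern is frequent with 2 arrays per clone. The log2 fold change of 0.36 ± 0.18 (SE) had a 95% interval of -0.09 to 0.81 and an adjusted p of 0.491 in limma. An exact permutation test of this probe gave a two-sided p of 0.333, which is the smallest that 2 arrays against 2 allow.

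CEACAM4, a transmembrane receptor known from granulocytes, was the only tested member whose fitted difference was negative. P70480 gave 18.9 and 14.9 in vec against 11.3 and 15.1 in shpkp3-2, and was not well above background on the first shpkp3-2 array. The second shpkp3-2 array lay above both vec arrays after scaling and the first lay below both, so the clones overlapped. The log2 fold change was -0.15 ± 0.21 (SE), with a 95% interval of -0.67 to 0.37 and a limma adjusted p of 0.804. The sign turned with normexp background correction, to 0.11, and without the first shpkp3-2 array, to 0.07, so that no direction can be given for CEACAM4.

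CEACAM7, a GPI-anchored member known from the normal colon, was also read differently by its probes. P228302, the probe that resembles PSG5, gave 11.6 and 14.6 in vec and 15.2 and 13.6 in shpkp3-2, well above background on all 4 arrays. P130573, assigned to the same transcript NM_006890, gave 2.03, 2.11, 2.11 and 1.80, with surrogate values on all 4 arrays. The RNA that P228302 bound is therefore not shown to be that transcript. The first vec array of P228302 lay below the other 3 arrays, which lay close together. The mean was -5.07 ± 0.51 in vec and -4.71 ± 0.10 in shpkp3-2 on the normalized log2 scale (SD, n = 2 each), and the log2 fold change was 0.36 ± 0.27 (SE, 95% interval of -0.31 to 1.03, limma adjusted p = 0.624). The difference was 0.79 within the first RNA collection and -0.07 within the second. The value rested on the first vec array. Without that array the log2 fold change was -0.0027, and without the second vec array it was 0.72 (unadjusted p = 0.015 and adjusted p = 0.152 in limma).

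CEACAM5, the tumor marker CEA, had 1 probe, P153301. It gave 2.75 and 2.51 in vec against 2.37 and 2.02 in shpkp3-2, and the software reported surrogate values on 3 of the 4 arrays. These signals lay below the lowest signal called well above background on every array, so no fold is given and no difference could be detected. CEACAM6, which is often raised in colorectal tumors, had 2 probes with the same outcome. P218442 gave 2.01, 2.10, 2.82 and 1.77, and P421483 gave 2.21, 2.31, 2.32 and 2.48 on the vec arrays and then the shpkp3-2 arrays. Both probes of CEACAM6 and the probe of CEACAM5 thus lay at the floor of the measurement in each clone. CEACAM8, a granulocyte activation marker, gave 2.12 and 2.21 in vec against 4.47 and 1.87 in shpkp3-2, and its higher value on the first shpkp3-2 array was also not well above background. As these are bulk cultures, few cells with much RNA of a member and many cells with little cannot be told apart.

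The members that could be tested were mostly dim. Of the 6 member probes tested, 5 were among the 7628 dimmest probes tested, and CEACAM1 P382319 was among the next 7628. The median SD between arrays of a clone was 0.25 (vec) and 0.19 (shpkp3-2) on the log2 scale in the dimmest 7628, against 0.20 and 0.12 over all probes tested. The median log2 fold change of the 6 member probes was 0.24, with 5 positive and 1 negative. These probes stand for 4 genes, and the positive ones include every CEACAM1 probe. CEACAM1 P434118 passed the filter only through shpkp3-2, and CEACAM1 P55738 and CEACAM4 P70480 only through vec. The median was 0.12 without the second shpkp3-2 array and 0.15 without the first vec array. Over all probes tested the median was 0.05 and 56.9% were positive, and in the dimmest 7628 the median was 0.09 and 58.5% were positive.

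**Figure D2:**
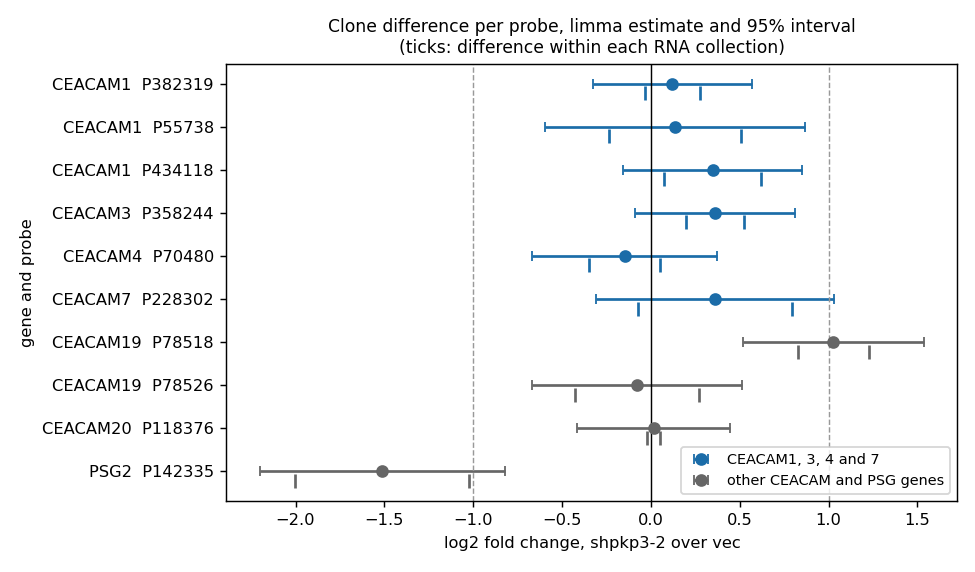
Log2 fold change of shpkp3-2 over vec for the 6 tested CEACAM probes (blue) and for the tested probes of other CEACAM genes and of PSG2 (grey), with limma 95% intervals and ticks for the difference within each RNA collection. Dashed lines mark a 2-fold change. The intervals of the blue points all include 0, and that of CEACAM19 P78518 does not. PSG2 was not well above background on either shpkp3-2 array, so its point and interval are fitted values and no measured size.

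The other CEACAM genes and the PSG genes were read in the same way. Of the 8 probes for CEACAM16, CEACAM18, CEACAM19, CEACAM20 and CEACAM21, 3 were tested, for CEACAM19 and CEACAM20. Of these, limma called 0, and 1 had an unadjusted p under 0.05. CEACAM19, a member of unsettled function, had 2 probes with different readings. P78518 gave 304 and 310 in vec and 541 and 541 in shpkp3-2, with both shpkp3-2 arrays above both vec arrays. Its log2 fold change was 1.03 ± 0.21 (SE, 95% interval of 0.52 to 1.54), which met the 2-fold rule and did not pass limma (adjusted p = 0.163). With the RNA collection as a block the adjusted p was 0.0346. P78526, the CEACAM19 probe assigned to NM_020219, gave 337 and 384 in vec and 309 and 281 in shpkp3-2, with a log2 fold change of -0.08 ± 0.24 (SE, limma adjusted p = 0.919). CEACAM20 P118376 gave 511 and 428 in vec against 402 and 414 in shpkp3-2, and its log2 fold change was 0.02 (limma adjusted p = 0.980).

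Of the 13 probes for 10 PSG genes, secreted relatives of the family known from the placenta, 1 was tested and 0 were called by limma, although its unadjusted p was under 0.05. PSG2 P142335 gave 13.6 and 17.3 in vec against 5.07 and 4.24 in shpkp3-2, and was not well above background on either shpkp3-2 array. With each shpkp3-2 array set to its lowest signal called well above background, PSG2 was 1.46-fold lower there. This is not a firm bound, as CEACAM4 P70480 gave 11.3 on the first shpkp3-2 array and was not well above background. The limma adjusted p of PSG2 was 0.142. Its probe passed the filter only through vec. Its fitted change of -1.51 and its place past the 2-fold rule rest on shpkp3-2 signals that were not well above background. So do its p-values, and no size of the change is given. With the RNA collection as a block its adjusted p was 0.00132, without the first vec array 0.0310, and 0.901 with normexp in place of the software's background correction, where the fitted change was -0.062.

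The members lie in a cluster on the long arm of chromosome 19, and the genes between them were measured as well. In RefSeq (GRCh38.p14) the order begins with CEACAM4, CEACAM7, CEACAM5, CEACAM6 and CEACAM3 and ends with CEACAM1 and CEACAM8, and 22 other protein-coding genes from between CEACAM3 and CEACAM1 were used here. Coordinates are left out because the probes were designed on hg18, a different build. Of the 26 probes for 21 of these genes, 20 were tested and 0 were called by limma, and 1 had an unadjusted p under 0.05. Their median log2 fold change was 0.0096, against 0.05 over all probes. The largest differences among their brightest probes were those of RABAC1 (0.44, limma adjusted p = 0.418), PRR19 (0.33, limma adjusted p = 0.624) and CD79A (-0.32, limma adjusted p = 0.671). A second PRR19 probe, the 1 with an unadjusted p under 0.05 in limma, passed the filter only through vec. It gave 13.0 and 10.9 in vec against 4.32 and 6.50 in shpkp3-2, where neither array was well above background (limma adjusted p = 0.238). Its p-values rest on these signals, and no size of the change is given.

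**Figure D3:**
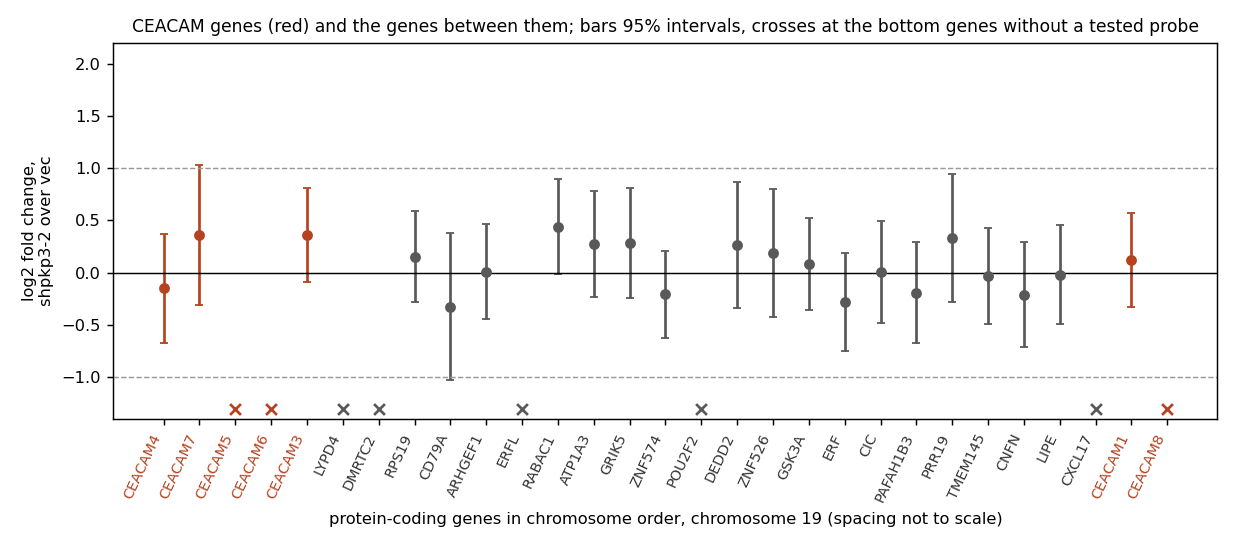
Log2 fold change of shpkp3-2 over vec, with limma 95% intervals, for the brightest tested probe of each CEACAM member (red) and of the genes used between them (grey), in the order of chromosome 19 with spacing not to scale. Crosses mark genes without a tested probe, which include CEACAM5, CEACAM6 and CEACAM8. Dashed lines mark a 2-fold change. Every interval includes 0.

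The partners of the CEACAM1 tail and its ligands were mostly well measured. Of 23 probes for 11 genes, 17 were tested, 0 were called by limma, and 1 had an unadjusted p under 0.05. That probe was for SRC, the tyrosine kinase that phosphorylates the CEACAM1 tail. SRC gave 517 and 356 in vec against 222 and 180 in shpkp3-2, and the clones did not overlap. Its log2 fold change was -0.89 ± 0.19 (SE, limma adjusted p = 0.183), which did not pass. CALM3, a calmodulin gene, had a log2 fold change of -0.30 (limma adjusted p = 0.541), and FLNA, the filamin A gene, one of -0.22 (limma adjusted p = 0.638). A second CALM3 probe had the opposite sign, 0.28 (limma adjusted p = 0.619). The median of the 17 probes was 0.01.

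The genes that make and attach the GPI anchor, on which CEACAM5 to CEACAM8 depend, were nearly all expressed. Of 45 probes for 27 genes, 41 were tested and 0 were called by limma, while 2 upward, both for PIGT, and 1 downward, for PIGX, had an unadjusted p under 0.05. PIGX, which acts in the first mannose transfer, had a log2 fold change of -0.62 on that probe (limma adjusted p = 0.367) and -0.15 on its brightest probe. PIGT, a subunit of the transamidase that attaches the anchor, had a log2 fold change of 0.53 (limma adjusted p = 0.359). PGAP1, which remodels the anchor, had one of -0.48 (limma adjusted p = 0.409), and PIGC, of the first step of synthesis, one of -0.44 (limma adjusted p = 0.417), with 0.01 on a second PIGC probe (limma adjusted p = 0.985). The median of the 41 probes was 0.05.

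Transcription factors described at CEACAM promoters were measured on all 4 arrays by all of their 13 probes. In limma 0 were called, and 0 had an unadjusted p under 0.05. SMAD4, of the TGF-beta pathway, had a log2 fold change of -0.31 (limma adjusted p = 0.831), where vec alone varied with an SD of 1.16. IRF1, an interferon-response factor, had one of 0.19 (limma adjusted p = 0.847), and SP3 one of -0.14 (limma adjusted p = 0.763), with 0.21 on a second SP3 probe. The largest value in the list was that of a fainter USF2 probe, 0.81 (limma adjusted p = 0.441), while the brightest USF2 probe was at -0.12. A second SMAD3 probe was at 0.39, against 0.05 on the brightest. The median was 0.02.

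The label of the cells was checked against markers. EPCAM, an epithelial surface antigen, gave 27452 to 31922 over the 4 arrays, the keratin KRT8 gave 66782 to 77600 on its brightest probe, and the keratin KRT19 gave 217730 to 282210. The markers that are more specific to the intestine were faint. CDX2, an intestinal transcription factor, gave 70.4 to 79.8, and LGALS4, an intestinal galectin, gave 13.7 to 18.4, both well above background on all 4 arrays. VIL1, which encodes the brush border protein villin, had no tested probe, with signals of 2.36 to 6.27 on one probe and 2.00 to 21.9 on the other. Of 13 probes for 8 colon epithelium genes, 11 were tested and 0 were called by limma, with 0 at an unadjusted p under 0.05. All 11, which stand for 7 genes, had positive log2 fold changes, where 56.9% of all probes tested and 65.3% of the brightest 7628 were positive. Their median was 0.22, against 0.05 over all probes and 0.09 over the brightest 7628. Without the first vec array the list median was 0.045, and without the second 0.32. The largest were those of CDH1, the E-cadherin gene (0.46, limma adjusted p = 0.456), KRT19 (0.39, limma adjusted p = 0.436) and KRT8 (0.33, limma adjusted p = 0.532). The part of this shift in the median of the CEACAM members was not tested.

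Markers of granulocytes, the cells in which CEACAM3, CEACAM4 and CEACAM8 are known, gave mixed readings. Of 12 probes for 9 granulocyte genes, 4 were tested, 0 were called by limma and 1, for CD177, had an unadjusted p under 0.05. No array had PTPRC, FCGR3B or ELANE well above background, and MPO and CSF3R were so on 1 array each. PRTN3 (38.7 to 69.9), ITGAM (17.3 to 22.5) and AZU1 (12.4 to 14.3) were well above background on all 4 arrays. CD177, a neutrophil surface antigen, gave 11.5 and 8.11 in vec and 12.4 and 14.9 in shpkp3-2, with a log2 fold change of 0.70 (limma adjusted p = 0.257), and did not pass. The second vec array was not well above background, so this probe entered through shpkp3-2, where it is high, and the other 2 probes of CD177 were not well above background on any array. The differences were 0.07 for AZU1 and -0.06 for PRTN3. Of 11 probes for 6 fibroblast genes, 3 were tested, all for COL1A1, with log2 fold changes of 0.02 on the brightest probe and 0.30 and 0.26 on the others. The probe at 0.30 was not well above background on the second vec array and passed the filter through shpkp3-2, where it is higher. The median of the 3 was 0.26, and its sign rested on the vec arrays, with 0.65 without the first and -0.19 without the second. Of these, limma called 0, and 0 had an unadjusted p under 0.05.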

How the data were processed

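The measurements are Cy3 signals of RNA from vec (2 arrays) and shpkp3-2 (2 arrays). The authors deposited the Agilent Feature Extraction output of each array (version 9.1 in the submitters' notes, a later version in the file headers). Its intensity, the processed signal, is linear, detrended and background subtracted, with low signals replaced by surrogates and no scaling between arrays. The deposited mean and background intensity were used for normexp only, and the deposited detection flags take the values 0 or 1. The design in the files is a custom one, not the catalogue array of the methods. Each group was read from the clone name in the sample labels. Whether the 2 arrays of a clone came from separate cultures beyond the separate RNA collections is not given, so p-values measure the spread between these arrays.

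From each log2 intensity the 75th percentile of its array was subtracted, non-uniformity outlier spots (26 to 39 per array) were dropped, and repeated spots were averaged. Tested were probes that the software called well above background on each array of 1 clone or of both, with limma 3.58.1 in R 4.3.3 (lmFit, eBayes, no covariate), with Benjamini-Hochberg adjustment over all 30512 probes and a threshold of 0.05. The brightest tested probe stood for a gene. Probes were matched to RefSeq symbols by accession (28595), symbol (2998) or older symbol (1176), and 17469 kept the name of the files. Sequences are those of the array files. The scripts were tested on simulated data. The number of arrays limits the precision.

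The series design pairs same-numbered arrays by RNA collection. Their deviations from the clone means had a correlation of -0.199 over the 30512 probes, and the main comparison, like the methods, left the pairing out. Alternatives were normexp (offset 50), quantile normalization, median centring, no filter, all arrays above background, a weaker background flag, a floor of 5, the replicate block, a trended robust prior, the mean of a gene's probes, each array left out and, chosen after seeing the data, a crossed block.

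The members and lists were chosen with earlier results of these data known. Named were the 7 members, PKP3, and of each list the genes called or past the 2-fold rule, otherwise the 3 with the largest differences among brightest tested probes. A gene that lies between the members is not reported here. Probes and marker genes outside this rule (P78526, CEACAM20, PSG1, PSG5, the second probes of PRR19, CALM3, SP3 and PIGC, the probes of PIGX, USF2 and SMAD3, the fainter ones of COL1A1, EPCAM, CDX2, LGALS4, VIL1, PTPRC, FCGR3B, ELANE, MPO and CSF3R) were named after their values were seen. The marker ITGAM was likewise named after its values were seen. Python 3.11.15, pandas 2.3.3 and matplotlib 3.10.9 were used for summaries and figures.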

Additional observations from a re-analysis of the deposited data

How the results depend on the processing

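The number of CEACAM probes called by limma and the number past the 2-fold rule were 0 under all 14 alternatives. The median log2 fold change of the CEACAM probes stayed positive, from 0.12 to 0.28 with 1 array left out and from 0.16 to 0.36 otherwise. The value of 0.36 came with all arrays above background, where only 3 member probes were tested. Without a filter 12 were tested, so these medians are not all of the same probes. CEACAM1, on its brightest probe or as the mean of its probes, ranged from 0.03 to 0.21 over its 15 alternatives and CEACAM3 from 0.19 to 0.45 over 14, without a call. CEACAM4 turned to 0.11 with normexp and ranged from -0.37 to 0.072 with 1 array left out. CEACAM7 ranged from -0.0027 to 0.72 with 1 array left out. With the replicate block, by RNA collection, the lowest adjusted p of a CEACAM probe was 0.741, and calls over all probes went from 75 higher and 44 lower to 503 and 338. The block gave 1 call among the other CEACAM genes (CEACAM19) and 1 among the PSG genes (PSG2) and changed no other list's calls. A crossed block, chosen after seeing the data, gave 64 and 40 calls over all probes. The all-probe calls were also moved over 1.5 times by quantile normalization (42 and 32), no filter (10 and 8), all arrays above background (25 and 21), the weaker flag (1 and 1) and each array left out (171 and 142 or 108 and 154 without a vec array, 243 and 55 or 223 and 80 without a shpkp3-2 array). With normexp they were 109 and 64 and with the trended prior 114 and 59. Medians of all probes ranged from -0.02 with median centring to 0.10 without a filter.

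Among the lists, the PSG median was -0.062 with normexp, 0.15 without a filter and 0.36 with the weaker flag, where other probes entered, and the factor median was -0.046 with median centring. With 1 array left out, calls ranged from 0 to 1 for the PSG list (PSG2, without vec 1) and from 0 to 1 for the colon list (VIL1, without shpkp3-2 1, where the only array on which it was well above background was left as the whole clone and alone let it pass the filter). Medians then ranged from 0.045 to 0.32 for colon genes (lowest without vec 1), from -0.050 to 0.50 for the other CEACAM genes (highest without shpkp3-2 2), -0.060 to 0.14 for the factors, -0.044 to 0.52 for granulocyte genes (highest without shpkp3-2 1) and -0.19 to 0.65 for fibroblast genes (lowest without vec 2). With 1 array left out, the lone array is assumed to vary like the other clone. CEACAM4 could not be tested where all arrays had to be above background. The causes of these shifts were not tested.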
